A study of Mus musculus with 6 samples.

Results

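The account covers 10 genes of natural killer (NK) cells and cytotoxic lymphocytes, measured by RNA sequencing in mouse popliteal lymph nodes: Ncr1, Klrb1c, Klrk1, Klrd1, Eomes, Prf1, Gzma, Gzmb, Gzmk and Nkg7. They were taken by deposited gene symbol, capitals ignored. Each symbol occurred once, which gave 10 of the 22274 genes listed, and GENCODE M21 gave the same names to their identifiers. The node drains the footpad, into which extracellular vesicles (EVs, membrane particles shed by cells) had been injected every other day for 10 days. For 3 nodes the EVs were those of the bladder cancer cell line UM-UC-3, and for the other 3 those of SV-HUC-1, an SV40-immortalised line from normal human urothelium. The labels give no mouse strain, sex or age.

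The deposited table names its 6 libraries LN-1 to LN-6, and no label ties a library to an EV source. The 6 libraries were therefore described as 1 set of nodes, and nothing below compares the EV sources. Any difference between the sources is inside the spread over the nodes. The labels do not say whether nodes came from separate mice.

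NK cells kill without prior sensitisation. They read activating receptors such as NKp46 and NKG2D against inhibitory ones such as CD94-NKG2A, and then release perforin, which opens the target membrane, together with granzymes, serine proteases that start cell death. CD8 T cells use the same granules, and both cells depend on T-box transcription factors. In a resting node NK cells are a small population next to B and T cells.

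Promoter sequences are shown for 4 genes that span the roles in the set: a receptor (Ncr1), the pore former (Prf1), a granzyme (Gzmb) and a granule membrane protein (Nkg7). Each runs 5′ to 3′ on the gene's strand, from 250 bases before to 49 after the RefSeq start site (GRCm38.p6, the mm10 assembly), and capitals mark TGTGGT or its reverse complement ACCACA, the core letters of a RUNX site.
Ncr1, chr7:4337474-4337773, plus strand: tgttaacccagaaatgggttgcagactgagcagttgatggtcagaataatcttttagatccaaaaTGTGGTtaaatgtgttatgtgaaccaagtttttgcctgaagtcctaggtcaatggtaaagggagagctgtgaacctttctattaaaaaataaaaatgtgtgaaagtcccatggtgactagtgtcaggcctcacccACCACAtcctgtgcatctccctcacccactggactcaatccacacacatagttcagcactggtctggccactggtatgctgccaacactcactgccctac
Prf1, chr10:61297586-61297885, plus strand: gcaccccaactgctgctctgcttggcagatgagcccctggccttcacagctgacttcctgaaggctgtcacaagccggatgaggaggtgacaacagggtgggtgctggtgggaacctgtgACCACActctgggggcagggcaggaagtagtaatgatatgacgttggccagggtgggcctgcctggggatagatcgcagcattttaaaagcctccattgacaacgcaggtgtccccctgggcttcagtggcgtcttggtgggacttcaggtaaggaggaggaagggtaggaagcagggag
Gzmb, chr14:56262285-56262584, minus strand: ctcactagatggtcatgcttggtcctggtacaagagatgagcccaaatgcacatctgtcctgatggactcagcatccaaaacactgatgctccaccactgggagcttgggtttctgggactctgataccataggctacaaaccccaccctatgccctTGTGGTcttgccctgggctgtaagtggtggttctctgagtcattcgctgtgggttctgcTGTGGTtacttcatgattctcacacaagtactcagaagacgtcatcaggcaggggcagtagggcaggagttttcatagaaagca
Nkg7, chr7:43436888-43437187, plus strand: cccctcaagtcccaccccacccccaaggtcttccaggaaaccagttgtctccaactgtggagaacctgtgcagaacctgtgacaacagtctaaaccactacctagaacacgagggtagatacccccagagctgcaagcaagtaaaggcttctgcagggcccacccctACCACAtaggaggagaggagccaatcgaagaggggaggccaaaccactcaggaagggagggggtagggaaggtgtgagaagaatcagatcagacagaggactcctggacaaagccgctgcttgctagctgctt
Of the 10 genes, 9 had a RefSeq window, and Klrd1 had no entry. The RUNX letters lay in 7 of the 9 windows (Ncr1, Klrb1c, Prf1, Gzma, Gzmb, Nkg7 and Klrk1), against 16.9% of 27025 promoter windows of the same length, 1 per gene. RUNX3 is a transcription factor of cytotoxic lymphocytes. The letters of a T-box core, GTGTGA or TCACAC, lay in 4 of the 9 (Ncr1, Gzmb, Gzmk and Nkg7) against 14.4% of all windows, and those of an ETS core, CAGGAA or TTCCTG, in 4 of the 9 (Klrb1c, Prf1, Nkg7 and Klrk1) against 30.4%. Each motif was counted on its own, whether or not its match shared bases with another. These are matches of letters on either strand and show no binding.

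The libraries held 13039899 to 18093707 counts and 16351 to 16544 genes with a count. B cell markers were abundant, with Cd79a, a chain of the B cell receptor, at 912 to 1206 CPM (counts per 1000000, scaled by edgeR's TMM factors). The 3 CD3 chains of the T cell receptor (Cd3e, Cd3d and Cd3g) summed to 12.9 to 24.7 CPM, against 2745 to 3515 CPM for the 4 B cell markers. Other T cell genes were higher, such as Trbc1, a beta chain constant segment, at 22.3 to 28.5 CPM and Lck, a kinase of T and NK cells, at 75.3 to 84.9 CPM. Markers of tissue around the node differed strongly between libraries. The 4 adipocyte markers summed to 54.3 CPM in LN-4 and 1599 CPM in LN-6, and the 4 skeletal muscle markers to 1.29 CPM in LN-5 and 791 CPM in LN-2.

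Per exon length, 3 of the 10 genes stood well above the rest. Levels between genes are given as TPM, counts per exon length scaled to 1000000 in each library, computed from the deposited counts and the M21 exon length. Ncr1, which encodes the activating receptor NKp46 and marks mouse NK cells, had a median of 98.7 TPM over the 6 nodes (range 68.8 to 121). Gzma, a granzyme with tryptase activity, had a median of 91.0 TPM (64.3 to 136), and Nkg7, a membrane protein of cytotoxic granules, 86.8 TPM (65.2 to 98.2). The ranges of these 3 genes overlapped, so their order is not fixed. All 3 lay above Prf1, next in the order at 21.2 TPM (13.7 to 26.1), in every library.

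**Figure D1:**
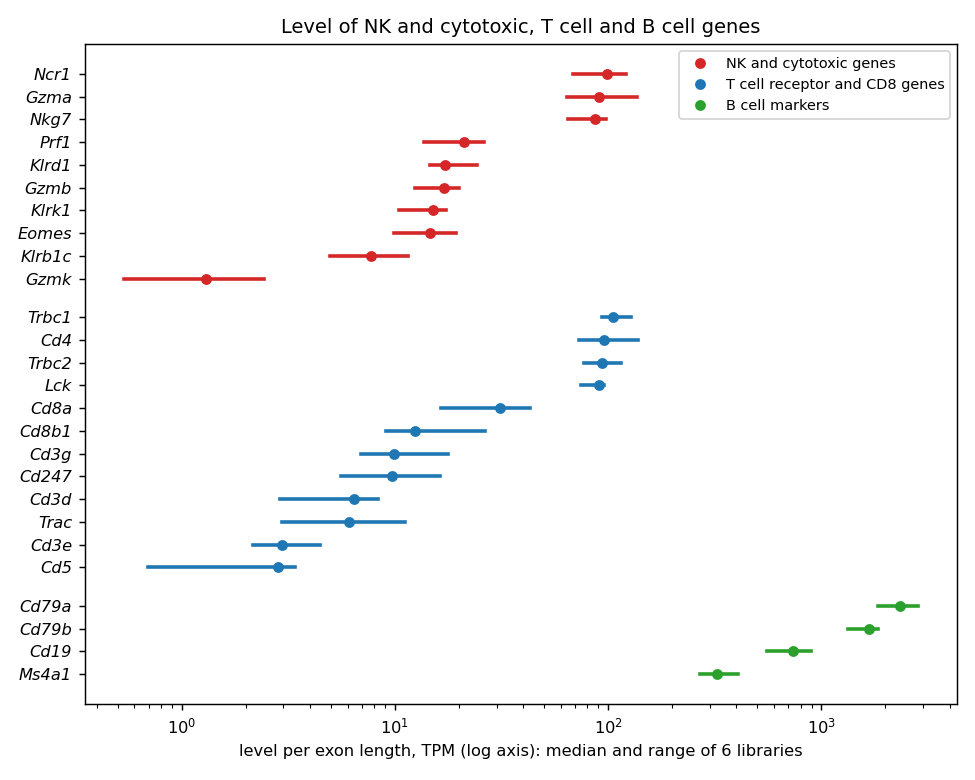
Level per exon length in TPM (log axis) of the 10 NK and cytotoxic genes, 12 T cell receptor and CD8 genes and 4 B cell markers. Points are medians and bars the range of the 6 libraries. Ncr1, Gzma and Nkg7 lie near 90 to 99 TPM at the median, Cd3e lies at 2.96 TPM and Cd79a at 2345 TPM.

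Below that, 5 genes with medians of 14.6 to 21.2 TPM could not be ordered by their ranges. Klrd1, which encodes CD94, the partner chain of NKG2 receptors, had a median of 17.1 TPM. Gzmb, the aspartate-cleaving granzyme, had 17.0 TPM, Klrk1, which encodes the activating receptor NKG2D, 15.1 TPM, and Eomes, a T-box transcription factor of NK and memory CD8 T cells, 14.6 TPM. Their ranges, and that of Prf1 (perforin), overlapped from neighbour to neighbour. The range of Klrb1c, the next in the order, overlapped that of Eomes too, and Eomes was above Klrb1c in 5 of 6 libraries. The place of Klrk1 rests on the length used, since M21 gives it 7183 bases of exon but 714 of coding sequence. Per coding length it had a median of 53.8 TPM, next to Ncr1 at 55.1 TPM and Nkg7 at 56.5 TPM, whereas Gzma stood at 37.9 TPM.

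By median, the 2 lowest genes were Klrb1c and Gzmk. Klrb1c, which encodes the NK1.1 antigen in the mouse strains that carry it, had a median of 7.72 TPM (4.94 to 11.5). In every library Ncr1 was above it, by 6.06 to 19.8 times per exon length. Klrb1c was the only gene of the 10 whose counts were not whole in any library, and its M21 span overlaps another listed gene on the same strand, Gm44511, so its level is uncertain. Gzmk, a granzyme known from CD8 memory T cells, had a median of 1.30 TPM (0.54 to 2.43), below Klrb1c in every library.

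By rank within each library among 22219 genes with a length, Ncr1 stood between 1200 and 2503, Gzma between 984 and 2574, and Nkg7 between 1436 and 2220. Gzmk stood between 12494 and 14261. The 6 genes other than these 4 lay between rank 6256 and rank 11434.

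**Figure D2:**
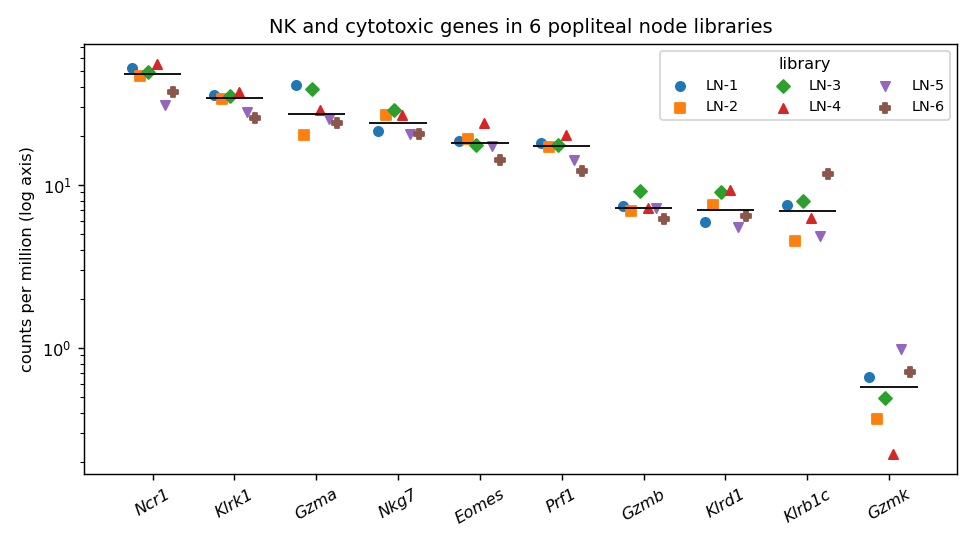
CPM (log axis) of each of the 10 genes in the 6 libraries, shown as points, with a line at the median. Ncr1 lies between 30.9 and 55.4 CPM, and Gzmk lies below 1 CPM in all 6 libraries.

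Differences between nodes are given on the CPM scale. Among the receptors, Ncr1 was at 51.9 CPM in LN-1, 46.6 in LN-2, 49.3 in LN-3, 55.4 in LN-4, 30.9 in LN-5 and 36.8 in LN-6. LN-5 and LN-6 were the low nodes and the other 4 lay close together. The highest was 1.79 times the lowest, a spread larger than counting error (chi-square test over 6 libraries, Benjamini-Hochberg adjusted p = 1.88e-30 over 13331 genes). Counting error is a low bar in these data, because 77.3% of all genes tested passed it.

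Klrk1 was at 35.4 CPM in LN-1, 33.5 in LN-2, 35.1 in LN-3, 37.0 in LN-4, 27.9 in LN-5 and 25.8 in LN-6. Its lowest nodes were again LN-5 and LN-6, and its highest-to-lowest ratio was 1.43 (chi-square, adjusted p = 2.44e-08). Klrd1 was at 5.88 CPM in LN-1, 7.47 in LN-2, 9.0 in LN-3, 9.23 in LN-4, 5.55 in LN-5 and 6.47 in LN-6. Here LN-1 was among the low nodes, and the ratio was 1.66 (chi-square, adjusted p = 1.16e-04). Klrc1, which encodes the inhibitory NKG2A chain that pairs with CD94 and was picked after its values were seen, ran from 6.78 CPM in LN-6 to 15.1 CPM in LN-4.

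Klrb1c took another order than the other receptors. It was at 7.54 CPM in LN-1, 4.54 in LN-2, 7.94 in LN-3, 6.28 in LN-4, 4.87 in LN-5 and 11.7 in LN-6. Its highest node, LN-6, was the lowest or next lowest for Ncr1 and Klrk1. The ratio of 2.57 was the widest of the 9 genes tested (chi-square, adjusted p = 3.15e-12), and it fell to 1.75 without LN-6. Its paralogue Klrb1b, picked after its values were seen, was also highest in LN-6, at 8.28 CPM against 0.68 to 1.98 CPM elsewhere. Klrb1b did not pass the filter on low counts. Its counts were not whole in LN-6 either, and reads of such paralogues may be split between them. Klrb1a and Klrb1f of the same family, also named after their values were seen, did not peak in LN-6. Klrb1a was highest in LN-3, at 4.32 CPM against 4.10 CPM in LN-6, but its spread was not beyond counting error (chi-square, adjusted p = 0.487). Klrb1f was highest in LN-1, at 29.9 CPM against 23.9 CPM in LN-6.

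Eomes was at 18.6 CPM in LN-1, 19.2 in LN-2, 17.4 in LN-3, 24.0 in LN-4, 17.4 in LN-5 and 14.1 in LN-6. A single node, LN-4, was high and LN-6 was low, for a ratio of 1.70 (chi-square, adjusted p = 6.01e-08). Without LN-4 the ratio was 1.36. Tbx21, which encodes the related T-box factor T-bet and was also picked after its values were seen, varied less, from 8.79 CPM in LN-1 to 10.5 CPM in LN-4, and did not pass (chi-square, adjusted p = 0.54).

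Of the granule genes, Prf1 was at 17.9 CPM in LN-1, 17.1 in LN-2, 17.5 in LN-3, 20.1 in LN-4, 14.1 in LN-5 and 12.1 in LN-6. It followed the order of Klrk1 in its highest and its 2 lowest nodes, with a ratio of 1.65 (chi-square, adjusted p = 1.84e-06). Nkg7 was at 21.4 CPM in LN-1, 26.9 in LN-2, 28.8 in LN-3, 26.6 in LN-4, 20.5 in LN-5 and 20.5 in LN-6. LN-2, LN-3 and LN-4 were high and the other 3 low, with a ratio of 1.41 (chi-square, adjusted p = 1.34e-07).

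The 3 granzymes differed in level and in how they varied. Gzma was at 40.8 CPM in LN-1, 20.1 in LN-2, 38.7 in LN-3, 28.6 in LN-4, 25.4 in LN-5 and 24.1 in LN-6. LN-1 and LN-3 were high, LN-2 was lowest, and the ratio was 2.03 (chi-square, adjusted p = 2.07e-33). Gzmb was at 7.40 CPM in LN-1, 6.88 in LN-2, 9.21 in LN-3, 7.17 in LN-4, 7.21 in LN-5 and 6.15 in LN-6, and 5 of these nodes lay within 6.15 to 7.40 CPM. It was the 1 tested gene of the 9 whose spread did not exceed counting error (chi-square, adjusted p = 0.103). Per exon length Gzma was above Gzmb in every library, by 4.16 to 7.86 times.

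Gzmk was read by only 10 counts in LN-1, 5 in LN-2, 7 in LN-3, 4 in LN-4, 16 in LN-5 and 9 in LN-6. The exact 95% Poisson interval, which covers counting error only, was 0.0606 to 0.569 CPM for the lowest node and 0.564 to 1.60 CPM for the highest. Gzmk did not pass the filter on low counts, and with no filter its spread was not beyond counting error (chi-square, adjusted p = 0.0845).

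**Figure D3:**
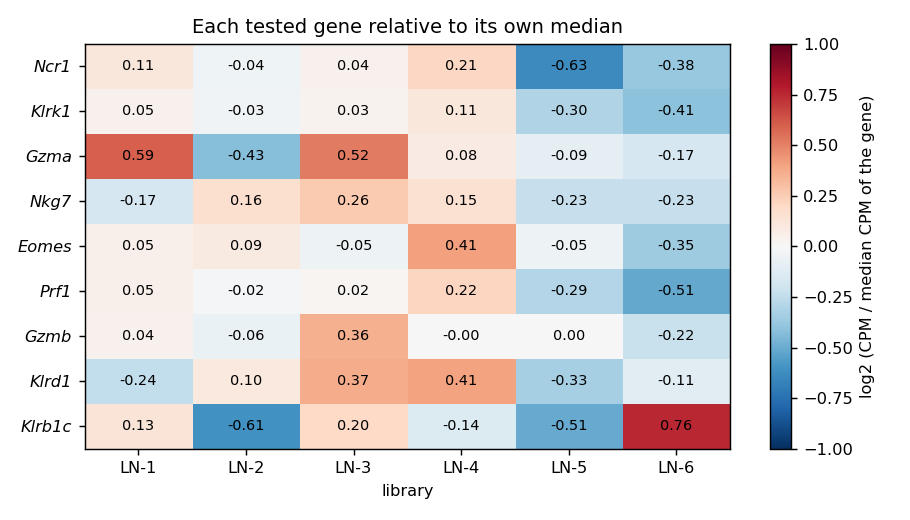
Each of the 9 tested genes relative to its own median, as log2 of the CPM ratio, in the 6 libraries (red above the median, blue below). Most cells of LN-5 and LN-6 are blue, Klrb1c in LN-6 is the reddest cell, and Gzma is reddest in LN-1 and LN-3.

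Over the 10 genes, LN-4 held the highest value of 5 and LN-6 the lowest of 4. Of the 9 tested genes, 8 were above their own median in LN-3, 7 in LN-1, 7 in LN-4, 3 in LN-2, and 1 each in LN-5 and LN-6. The summed CPM of the 10 genes was 207 in LN-1, 183 in LN-2, 214 in LN-3, 215 in LN-4, 155 in LN-5 and 158 in LN-6, a ratio of 1.39 between the highest and the lowest. LN-5 and LN-6 were lowest, and LN-2 lay midway between them and the other 3. Bulk RNA does not tell fewer NK cells from less RNA per cell.

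LN-6 also had the highest adipocyte markers and LN-2 the highest skeletal muscle markers, while LN-5 had 128 CPM of adipocyte and 1.29 CPM of muscle markers in sum. LN-4, the highest node in the summed CPM of the 10 genes, had the highest erythroid and neutrophil markers, at 824 and 260 CPM in sum. LN-2 came next, at 590 and 252 CPM. The part of such tissue or blood cells in the low and high values was not tested. Per 100 counts of Ptprc, which encodes the pan-leukocyte protein CD45, the 10 genes together gave 15.4 counts in LN-1, 13.6 in LN-2, 16.9 in LN-3, 12.7 in LN-4, 11.0 in LN-5 and 13.3 in LN-6. On that scale LN-5 stayed lowest, and LN-4 moved from the highest to the next lowest.

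**Figure D4:**
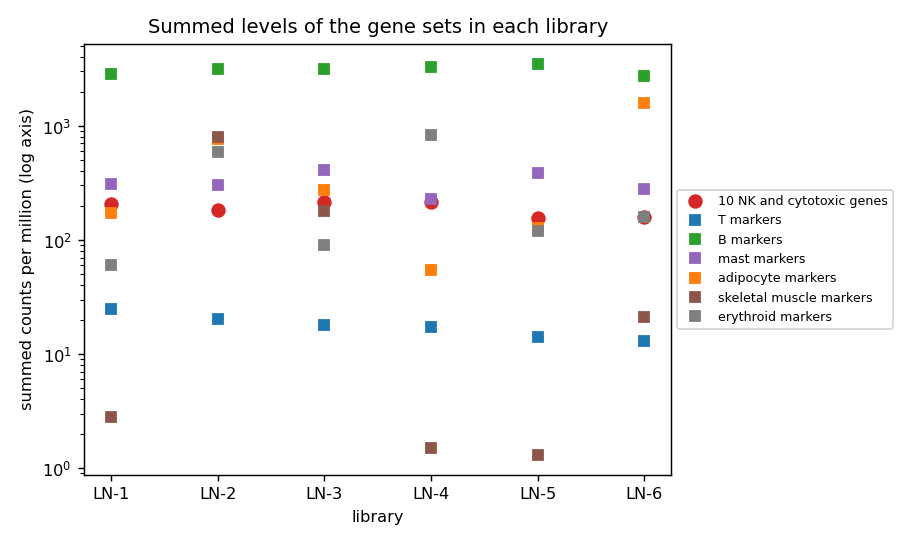
Summed CPM (log axis) of the 10 NK and cytotoxic genes and of marker sets of other cells in each library. The 10 genes stay between 155 and 215 CPM, while adipocyte, skeletal muscle and erythroid markers change by far more between libraries.

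The count of genes past the chi-square test was 8 of 9 tested, near the 77.3% of all 13331 genes, and 72.9% of the 5976 genes within the same span of median abundance. The median ratio of highest to lowest CPM was 1.66 for the 9 genes and 1.35 over all genes tested. The biological coefficient of variation (BCV), the spread left after counting error as edgeR estimates it, had a median of 0.173 for the 9 genes and 0.135 over all genes. Over the 5976 genes within the same span of abundance the median was 0.142, and each of the 9 genes was above it. Against the trend that edgeR fits to abundance, which lies above that median, BCV was higher in Klrb1c (0.300 against 0.245), Gzma (0.236 against 0.170) and Ncr1 (0.193 against 0.159), and lower in the other 6.

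**Figure D5:**
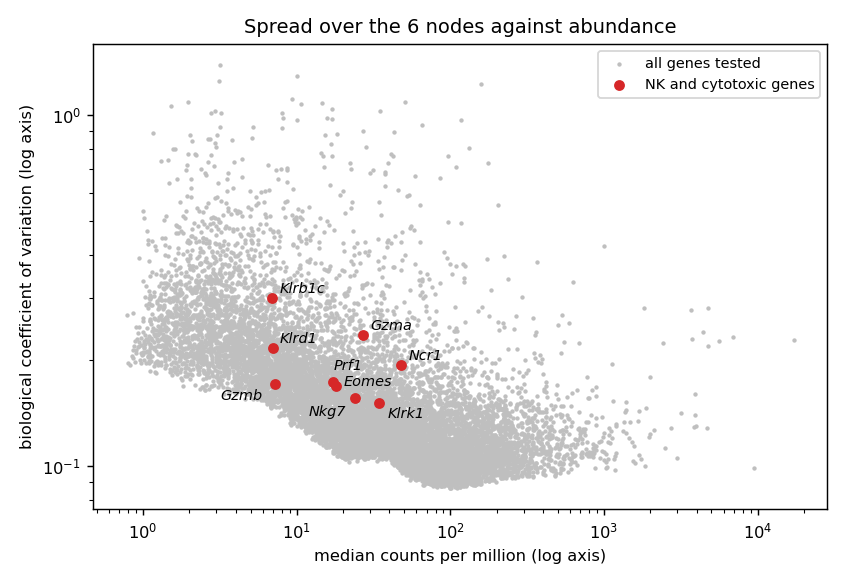
BCV over the 6 nodes against median CPM (both log axes) for the 13331 genes tested (grey) and the 9 tested NK and cytotoxic genes (red). Klrb1c has the highest BCV of the 9 (0.300) and Klrk1 the lowest (0.151), and all 9 lie inside the cloud of other genes.

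Other genes of the pathway were read from lists. The median highest-to-lowest CPM ratio of the tested genes was 1.54 for NK receptors and adaptors, 1.46 for granzymes and granule genes, 1.38 for transcription factors, 1.47 for cytokines and their receptors, and 2.28 for T cell receptor and CD8 genes, against 1.35 over all genes tested. Of 28 other NK receptor and adaptor genes, 21 passed the filter, and 16 of those spread beyond counting error. Over all genes tested the share was 77.3%. The 7 left out by the filter included genes of wide spread, which the median ratio does not show. Klra4, of the Ly49 receptor family, had 2 counts in LN-1, 41 in LN-2, 0 in LN-3, 48 in LN-4, 2 in LN-5 and 21 in LN-6. Klra8 and Klra9 of the same family were also highest in LN-2, LN-4 and LN-6, at 0.39 to 0.83 CPM and 1.39 to 1.46 CPM, against at most 0.50 CPM in the other nodes. Other listed members of the family did not share this pattern, or did so only in part. Klra3, which had more counts, was lowest in LN-2, LN-4 and LN-6, at 4.18 to 6.84 CPM against 7.21 to 13.6 CPM elsewhere. Klra1 ran only from 0.49 to 0.95 CPM. Klra7 was highest in LN-4 and LN-2, at 3.95 and 3.81 CPM, and lowest in LN-5, at 1.23 CPM. It was at 3.50 CPM in LN-1 and 3.33 CPM in LN-3, beside 3.39 CPM in LN-6. All these Klra genes were picked after their values were seen, and reads can be split between members of this family. The highest of the list per length were Tyrobp (DAP12, an adaptor shared with myeloid cells) at 448 TPM, Il2rb (the receptor chain for IL-2 and IL-15) at 85.2 TPM and Fcer1g (an adaptor of Fc receptors and NKp46) at 63.1 TPM. Il2rb ran from 90.2 CPM in LN-6 to 122 CPM in LN-4, the same extreme nodes as Klrk1 and Prf1. Tyrobp was also highest in LN-4, at 105 CPM, but lowest in LN-5, at 79.7 CPM. Fcer1g took another order, highest in LN-3 at 22.6 CPM, with 19.0 CPM in LN-6 against 16.3 CPM in LN-4.

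Of 21 granzyme and granule genes, 16 passed the filter and 10 of those spread beyond counting error, against 77.3% of all genes tested. Lamp1, a lysosomal membrane protein, had a median of 781 TPM, Srgn, the granule proteoglycan serglycin, 542 TPM, and Ccl5, a chemokine stored by cytotoxic lymphocytes, 385 TPM. The first 2 are made by many cells. Gzmd, Gzme, Gzmf, Gzmg and Gzmn had 0 counts in all 6 libraries, which allows each up to 0.237 CPM in the shallowest library (3 counts).

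Of 13 transcription factor genes, 12 passed the filter and 9 spread beyond counting error; the highest were Ets1 at 231 TPM, Irf8 at 184 TPM and Id2 at 73.9 TPM, and each is also used by other node cells. Runx3, added after its values were seen, ran from 38.6 CPM in LN-3 to 66.8 CPM in LN-5. Of the 9 tested NK and cytotoxic genes, 8 were above their own median in LN-3 and 1 in LN-5. Of 11 cytokine and receptor genes all were tested and 9 spread beyond counting error. For both of these lists too, the share over all genes tested was 77.3%. Il2rg, the common gamma chain, had 714 TPM, Il21r 122 TPM and Il18, an activating cytokine for NK cells, 59.6 TPM.

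Since T cells can carry the same granules, the T cell receptor and CD8 genes were set beside the 10 genes. All 12 were tested and 11 spread beyond counting error, against 77.3% of all genes tested. Trbc1 and Trbc2, near-identical constant segments of the receptor beta chain between which reads can be split, had medians of 106 and 93.6 TPM, and Cd4 had 95.1 TPM. Lck had 90.8 TPM, so these 4 genes lay near Ncr1 at 98.7 TPM. Lower in the list were the CD3 chains, with medians of 2.96 TPM for Cd3e, 6.43 TPM for Cd3d and 9.95 TPM for Cd3g, and the alpha constant segment Trac with 6.07 TPM. Lck, Trac, Cd8a and Cd8b1 were added to the named genes after their values were seen. Cd8a, which some dendritic cells also make, ran from 20.6 CPM in LN-6 to 46.8 CPM in LN-4, and Cd8b1, the chain of CD8 T cells, from 4.65 CPM in LN-6 to 11.6 CPM in LN-4.

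Against the summed counts of Cd3e, Cd3d, Cd3g and Cd247 (the zeta chain, which NK cells also use), the 10 genes gave 4.12 counts per count in LN-1, 5.22 in LN-2, 5.25 in LN-3, 6.52 in LN-4, 5.31 in LN-5 and 6.83 in LN-6. LN-6, low in the 10 genes, was highest on this scale, and the 4 chains had 294 raw counts there against 762 in LN-1. These raw counts are not scaled for library size, and LN-6 was the smaller library (effective size 12675799 against 15129017). Mast cells can also make granzyme B. Their 5 markers summed to 227 CPM in LN-4 and 414 CPM in LN-3, which was also the highest node for Gzmb. The markers were at 389 CPM in LN-5, though, where Gzmb was at 7.21 CPM, close to its 7.17 CPM in LN-4. Their part in the Gzmb value was not tested.

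The genes whose pattern over the 6 libraries was most like the mean of the 9 tested genes came from outside the pathway lists. By Pearson's r of log2 CPM among 13322 other genes, they were Smc1a (a cohesin subunit, r = 0.99), Tmem248 (0.98), Armt1 (0.97), Lcp2 (SLP-76, a signalling adaptor of T and NK cells, 0.97) and Srsf5 (a splicing factor, 0.96). Smc1a ranged only from 176 to 192 CPM. With 6 libraries and that many genes, high values of r are common, and these are a description.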

How the data were processed

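RNA of 6 mouse popliteal nodes was sequenced from TruSeq libraries, per the labels' protocols; the build mm10 and HISAT2 2.4 come from the submitters' processing notes. The authors deposited 1 table of estimated counts per gene with, per the file headers, 6 count columns. A further 6 columns of per-library values were not used. The counting tool is not given in the sources used here. About 9% of values were not whole, and counts were rounded for the tests.

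Columns LN-1 to LN-6 were matched to the 6 popliteal node samples as a set, from the tissue label. No column was given a sample or EV source, so no group comparison was made. Planned FPKM levels were replaced by TPM from counts and GENCODE M21 exon lengths. CPM used TMM (edgeR 4.0.16, R 4.3.3); filterByExpr (minimum count 10) left 13331 genes. Each gene's counts were tested by chi-square (5 degrees of freedom) against effective library sizes, called at adjusted p under 0.05 and tested on simulated data. This test compares libraries only. BCV came from an intercept-only fit. Genes were matched to M21 identifiers, and promoters came from RefSeq GRCm38.p6. All 10 genes are named; from each list the 3 with the highest median TPM and those at 0 in all libraries, with additions marked in the text; and the 5 most alike in pattern. Genes, lists and motifs were chosen with earlier results of these data known.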

Additional observations from a re-analysis of the deposited data

How the results depend on the processing

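The count of NK and cytotoxic genes whose spread exceeded counting error was 8 with DESeq2 1.42.0 size factors, with column totals, with no filter on low counts (10 tested), with any 1 library left out, and without LN-2 and LN-6, a choice made after seeing the data; Gzmb failed in each. Over all genes the count was 10316 with DESeq2 size factors, 10369 with column totals, 11735 with no filter, 8793 without LN-2 and LN-6, and 9481 to 9957 with 1 library left out. The highest-to-lowest ratio of the summed CPM stayed between 1.36 and 1.39 when 1 library was left out, and was 1.54 per Ptprc count and 1.66 per count of the 4 T cell receptor chains. The lowest sums, in LN-5 and LN-6, lay close at 155 and 158 CPM, and the highest, in LN-3 and LN-4, at 214 and 215 CPM. Leaving out 1 library could therefore hardly change the ratio. Of the 100 single-gene ratios recomputed, 93 moved by less than the spread between nodes and 7 by more. Many of the 93 could hardly have moved, since leaving out a library matters only where it held the highest or lowest value. Those 7 belonged to Gzmb without LN-3, Eomes without LN-4 or LN-6, Klrb1c without LN-6, and these 3 genes without LN-2 and LN-6. Ranks by level per length matched for 4 of 10 genes with coding length and for 6 with the longest transcript, both chosen after seeing the data. Alternatives that need FPKM were not run. No paired analysis was possible because the library columns carry no replicate number or EV source. At 13039899 to 18093707 counts per library, Gzmk was read by only 4 to 16 counts. With no filter its spread was not beyond counting error (chi-square, adjusted p = 0.0845). The power to detect differences in Gzmk was not tested.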
